A study of Mus musculus with 6 samples.

Results

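Bulk RNA-seq of mouse embryonic stem cells (mESCs) and of cardiac precursor cell cultures (CPCCs) was examined for 10 genes that mark endothelial and blood cells: *Pecam1*, *Cdh5*, *Tek*, *Tie1*, *Cd34*, *Emcn*, *Esam*, *Tal1*, *Erg* and *Gata2*. They were picked by gene symbol out of 16279 genes listed for at least 1 of the cell types. All cells were male F1 hybrids of the strains C57BL/6 (the mother's, given as C57BL/6J in the study's methods) and CAST/EiJ (the father's), and no gene was deleted or edited in either group. The mESCs were 3 clones from 3 blastocysts, kept undifferentiated with LIF and 2i, a pair of kinase inhibitors. The CPCCs were made from those clones through hanging-drop aggregates treated with ascorbic acid, then grown in a medium with EGF and Fgf2, and are mixed cultures rather than a sorted cell type. Each cell type has 3 libraries, named here by their columns as S01, S02 and S03 (mESC) and S04, S05 and S06 (CPCC). No ages or doses were compared within either cell type.

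Endothelial cells line blood vessels and are held together by junction proteins, among them VE-cadherin (*Cdh5*), PECAM-1 (*Pecam1*) and ESAM (*Esam*). Angiopoietins signal to them through the receptor TIE2 (*Tek*), which pairs with TIE1 (*Tie1*). Endothelial and blood cells arise from closely related mesodermal progenitors, in which the transcription factors TAL1 (*Tal1*), GATA2 (*Gata2*) and the ETS family member ERG (*Erg*) act, TAL1 and GATA2 together in a complex with LMO2 and LDB1. Several of these genes are not private to vessels: PECAM-1 is also a known surface protein of mouse ES cells, and CD34 (*Cd34*) is found on mesenchymal and blood progenitors.

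The 10 genes did not move as a group. *Pecam1* and *Gata2* were well above the detection floor in mESCs and fell in CPCCs, by 20.4-fold and 5.37-fold. *Cdh5*, *Emcn*, *Esam* and *Tal1* were listed for CPCCs only, all at low levels and all but *Emcn* more than 3-fold higher in the library S04 than in the mean of S05 and S06. *Tek* was present in both cell types without passing the test, *Cd34* was at the edge of detection in both, *Erg* was listed only for mESCs with 15 counts in all, and *Tie1* was listed for neither.

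The values are expected counts per gene, which can be fractions, in 1 table per cell type that leaves out any gene with a sum under 10 over its 3 libraries. A gene missing from a table is therefore no measured zero, and only a lower bound of its fold can be had, here with 3 counts in each library as the floor. Levels are given in CPM, counts scaled to 1000000 per library with TMM normalization over the 13001 genes of both tables. The floor was 0.439 to 0.463 CPM for the mESC libraries and 0.298 to 0.364 CPM for the CPCC libraries. Of the 10 genes, 3 (*Pecam1*, *Tek* and *Gata2*) entered the test of 12471 genes between the cell types, edgeR's quasi-likelihood test at an adjusted p under 0.05 (Benjamini-Hochberg over all genes tested). In that test 0 of the 3 were higher in CPCCs, against 31.7% of all genes tested, and 2 of the 3 were lower, against 29.7%. At an unadjusted p under 0.05 and in DESeq2 the number higher was also 0. Of all 10 genes, 4 were listed for CPCCs only, against 15.5% of genes in either table, and 1 for mESCs only, against 4.67%. *Cd34* was in both tables and was removed by the filter on low counts. The genes nearest to the limit of 10 counts were *Erg*, with 15 counts in the mESC table, and *Cd34*, with 16. In bulk libraries, fewer cells of a type and less RNA per cell cannot be told apart.

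The mESC libraries held 6442639 to 6907330 counts and the CPCC libraries 8468819 to 11436062, S04 being the deepest. The columns cannot be matched to replicates or to parent clones. S04 stood apart from S05 and S06 in markers of blood cells: the CPM summed over 22 haematopoietic markers was 509.9 in S04, 183.1 in S05 and 100.3 in S06, and 14 of the 19 markers listed for CPCCs were highest in S04, whereas 40.3% of the 13125 genes with at least as many CPCC counts as *Cd34* were highest there. The cultures were checked against their labels with markers of each kind. All 10 pluripotency markers, naive and general ones, fell in CPCCs, and their summed level went from between 4621.8 and 5055.2 CPM in mESCs to between 149.5 and 314.1 CPM. Of the 10 mesenchymal markers 3 rose and 6 were listed for CPCCs only, and of the 8 smooth muscle and pericyte markers 3 rose and 5 were listed for CPCCs only. Of the 10 cardiac markers 1, *Tnnt2*, rose (log2 fold change 5.01, standard error 0.67, edgeR adjusted p = 0.000227), 4 were listed for CPCCs only and 1, *Tbx5*, for mESCs only. *Tnnt2* had 102.6 CPM in S04 against 24.0 in S05 and 28.3 in S06, and without S04 its log2 fold change was 4.04.

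**Figure D1:**
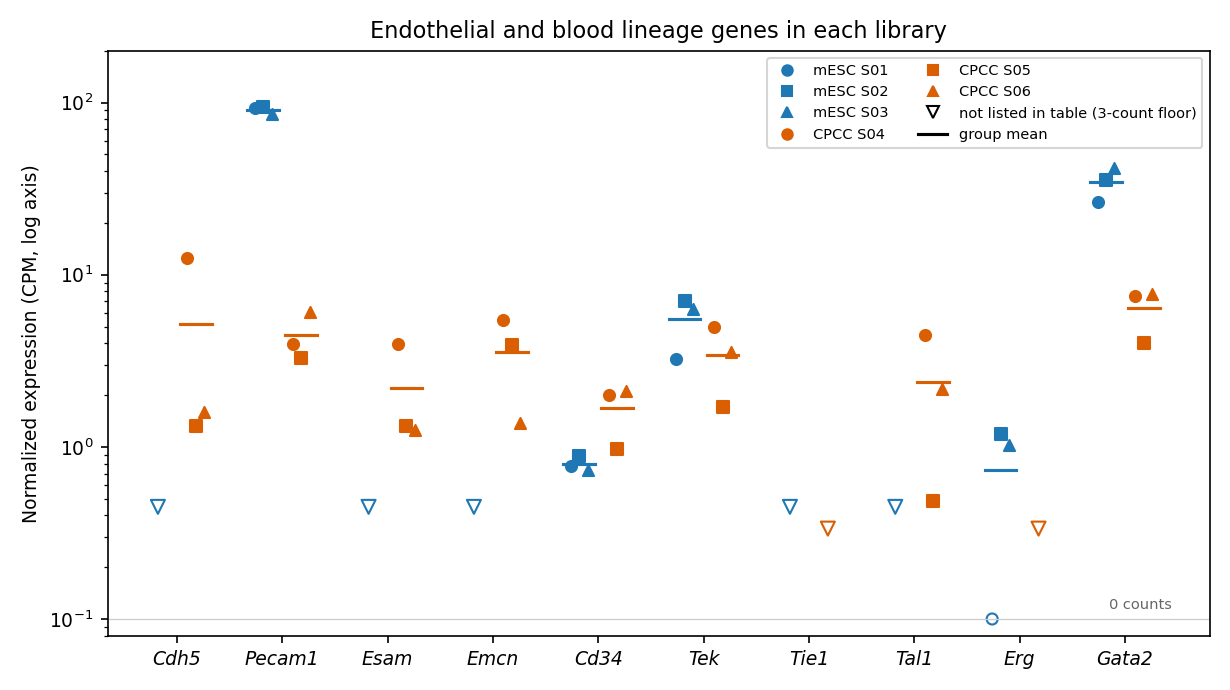
Normalized expression of the 10 genes in CPM (log axis) in 3 mESC libraries (blue) and 3 CPCC libraries (orange), with group means as lines. Open triangles mark genes missing from a table at the mean floor of 3 counts, and an open circle the library with 0 counts. *Pecam1* and *Gata2* lie lower in every CPCC library than in every mESC library, and the highest CPCC point of *Cdh5*, *Esam*, *Emcn*, *Tal1* and *Tek* is S04.

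The sequence before the start site is shown for 3 of the genes, *Emcn* and *Tal1* as genes listed only for CPCCs and *Gata2* as a gene that fell. The RefSeq promoter table used here (GRCm38.p6) has entries for 7 of the 10 genes, with 11 start sites, but not for *Pecam1*, *Cdh5* and *Esam*. Each run below holds the 250 bases before a start, 5′ to 3′ on the gene's strand, which is the plus strand for all 3. Capitals mark matches on either strand to 3 short motifs. For ETS factors the motif searched was GGAAG, a form of the GGAA site that they bind, and other GGAA matches are not marked. For the family of GATA2 the motif searched was GATAA. The E-box, of the kind that TAL1 complexes bind, was searched as CAGNTG. *Tal1* and *Gata2* have a further start each, not shown. *Emcn* is at chr3:137340828-137341077, *Tal1* at chr4:115056176-115056425 and *Gata2* at chr6:88193641-88193890.
*Emcn*: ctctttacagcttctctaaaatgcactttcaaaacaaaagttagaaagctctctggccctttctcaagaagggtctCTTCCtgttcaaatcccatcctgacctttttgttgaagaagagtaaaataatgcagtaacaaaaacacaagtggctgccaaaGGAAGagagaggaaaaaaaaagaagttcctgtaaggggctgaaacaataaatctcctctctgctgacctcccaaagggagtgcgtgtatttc
*Tal1*: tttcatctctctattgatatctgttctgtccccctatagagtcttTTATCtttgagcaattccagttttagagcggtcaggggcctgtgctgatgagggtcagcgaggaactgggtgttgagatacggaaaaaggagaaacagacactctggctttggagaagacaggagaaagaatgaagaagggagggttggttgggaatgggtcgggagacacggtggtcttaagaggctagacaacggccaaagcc
*Gata2*: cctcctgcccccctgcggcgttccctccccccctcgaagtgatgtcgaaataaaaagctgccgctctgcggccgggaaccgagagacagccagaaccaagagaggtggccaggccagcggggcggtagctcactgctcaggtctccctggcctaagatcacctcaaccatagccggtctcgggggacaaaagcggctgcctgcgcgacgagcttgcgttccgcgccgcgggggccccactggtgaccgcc
In these windows *Emcn* had 2 ETS matches, *Tal1* had 1 GATA match and *Gata2* had none of the 3 motifs. Of 32851 promoters searched in the same way, 64.1% held the ETS letters, 22.6% the GATA letters and 44.8% the E-box. A match to letters this short is common and is a description of the sequence.

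Among the junction and surface genes, *Cdh5* (chromosome 8, 104101625 to 104144503 on GRCm38, plus strand) encodes VE-cadherin, the adhesion protein of endothelial junctions. It had 126, 11 and 14 counts in S04, S05 and S06, or 12.5, 1.33 and 1.60 CPM (5.15 ± 6.38, SD, n = 3), and was missing from the mESC table. Nearly all of its signal was in S04, whose level was 8.53-fold that of the mean of S05 and S06, a ratio above that of 99.8% of genes. The mean level in CPCCs was at least 11.5-fold higher than the mESC floor, and at least 3.28-fold higher without S04. *Cdh5* was thus above the floor in all 3 CPCC libraries, by a margin that 1 library set.

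*Pecam1* (chromosome 11, 106654213 to 106715282, minus strand), an adhesion protein of endothelial cells, platelets and leukocytes, went the other way. It had 602, 641 and 588 counts in mESCs and 40, 27 and 53 in CPCCs. In CPM this was 93.0, 94.3 and 86.0 (91.1 ± 4.46, SD, n = 3) against 3.98, 3.27 and 6.07 (4.44 ± 1.46, SD, n = 3). The mESC libraries were close together and every CPCC library lay far below them. The log2 fold change was −4.35 (standard error 0.26, edgeR adjusted p = 3.38e-06). Unlike *Cdh5*, *Pecam1* was not raised in S04, which stood at 0.851 times the mean of S05 and S06.

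*Esam* (chromosome 9, 37528089 to 37538320, plus strand), a tight junction adhesion protein of endothelial cells and platelets, followed the pattern of *Cdh5* at a lower level. Its CPCC counts were 40, 11 and 11, or 3.98, 1.33 and 1.26 CPM, and it was missing from the mESC table. S04 was 3.07-fold the mean of the other CPCC libraries, which were nearly equal. The bound was at least 4.89-fold higher in CPCCs, and at least 2.90-fold without S04.

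*Emcn* (chromosome 3, 137341078 to 137431070, plus strand) encodes endomucin, a sialomucin of capillary and venous endothelium, and its promoter is shown above. It had 55, 32 and 12 counts in CPCCs, or 5.47, 3.88 and 1.38 CPM, and was missing from the mESC table. S05 here lay nearer to S04 than to S06, so the ratio of S04 to the other libraries was only 2.08. *Emcn* was at least 7.98-fold higher in CPCCs, and at least 5.87-fold without S04, the bound that depended least on that library among the 4 genes listed for CPCCs only.

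*Cd34* (chromosome 1, 194938821 to 194961293, plus strand), a sialomucin of haematopoietic progenitors and of small vessels, had 5, 6 and 5 counts in mESCs and 20, 8 and 18.3 in CPCCs. This was 0.772, 0.883 and 0.731 CPM against 1.99, 0.970 and 2.10 CPM. The groups did not overlap, but the highest mESC and the lowest CPCC library lay close together. With no filter on low counts its log2 fold change was 1.09 (standard error 0.67, edgeR adjusted p = 0.189), so no difference was detectable at this depth. Exons of *Cd34* overlap those of *Gm16897* on the opposite strand, and the library kit named in the labels does not mark strand, so reads of the pair cannot be told apart there.

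The angiopoietin receptor *Tek* (chromosome 4, 94739289 to 94874977, plus strand) had 21, 48 and 43 counts in mESCs and 50, 14 and 31 in CPCCs. In CPM the libraries stood at 3.24, 7.06 and 6.29 (5.53 ± 2.02, SD, n = 3) in mESCs and at 4.97, 1.70 and 3.55 (3.41 ± 1.64, SD, n = 3) in CPCCs. The groups overlapped, since S04 and S06 were above the lowest mESC library. The log2 fold change of −0.69 (standard error 0.53) did not pass (edgeR adjusted p = 0.28). *Tek* was highest in S04 among the CPCC libraries, at 1.89-fold the mean of S05 and S06. Its partner receptor *Tie1* was in neither table, which puts its sum under 10 counts in each cell type.

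The other genes around TIE2 were higher in CPCCs or listed for them only, with the exception of *Dok2*, an adaptor of the receptor. The ligand *Angpt1*, the main agonist of TIE2, was listed for CPCCs only at 34.3, 21.1 and 14.0 CPM, at least 51.6-fold above the mESC floor. *Angpt2*, a ligand with context-dependent effects, rose from 1.70, 1.62 and 0.878 CPM to 18.9, 23.9 and 20.1 CPM (log2 fold change 3.89, standard error 0.36, edgeR adjusted p = 2.78e-05). *Ptprb*, the phosphatase VE-PTP that restrains TIE2 and binds VE-cadherin, was listed for CPCCs only at 100.8, 45.7 and 35.0 CPM, at least 135.1-fold above the floor. Ligand and phosphatase transcripts were thus found in all 3 CPCC libraries while the receptor itself did not pass the test. Of the 8 genes of the angiopoietin and TIE list, which includes *Tek* and *Tie1*, 3 were tested, with 1 higher and 0 lower, 4 were listed for CPCCs only and 1 for neither. Over all genes tested, 31.7% were higher and 29.7% lower. At an unadjusted p under 0.05 the number lower was also 0. The 3 tested had a median log2 fold change of 0.83, against 0.03 over all genes tested. That median was the value of *Dok2*, which did not pass (edgeR adjusted p = 0.281) and was 0.00 without S06.

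The VEGF pathway, whose receptors VEGFR2 (*Kdr*) and VEGFR1 (*Flt1*) mark endothelial cells, had 10 genes, of which 8 were tested, with 4 higher and 1 lower, and 2 were listed for CPCCs only. The shares of all genes tested were 31.7% higher and 29.7% lower. *Kdr* had 2.39, 5.46 and 2.18 CPM in CPCCs, with S05 and not S04 highest, and was at least 7.46-fold above the mESC floor. *Flt1* had 31.1, 30.3 and 20.2 CPM and was at least 60.7-fold above it. *Flt4*, the receptor of lymphatic endothelium, rose (log2 fold change 4.45, standard error 0.52, edgeR adjusted p = 0.000106), and so did the co-receptor *Nrp1*, which mesenchymal cells also express (8.94, standard error 0.40, edgeR adjusted p = 1.33e-06). The ligand *Vegfa* stood in mESCs at 32.9, 33.4 and 57.2 CPM and in CPCCs at 35.4, 46.6 and 51.3, with overlapping groups (log2 fold change 0.11, standard error 0.27, edgeR adjusted p = 0.739). The 1 gene lower was *Vegfb*, named after its values were seen (log2 fold change −1.04, standard error 0.26, edgeR adjusted p = 0.00695). The median over the 8 tested was 1.90.

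Of the transcription factors, *Tal1* (chromosome 4, 115056426 to 115071756, plus strand), a basic helix-loop-helix factor needed for all blood formation, was missing from the mESC table. In CPCCs it had 45, 4 and 19 counts, or 4.47, 0.485 and 2.18 CPM. S04 was again highest and S05 was close to its own floor of 0.364 CPM. The bound was at least 5.31-fold higher in CPCCs, and at least 2.97-fold without S04. The *Tal1* window shown above held the GATA letters, as 22.6% of promoters do.

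*Gata2* (chromosome 6, 88193891 to 88207033, plus strand), a zinc finger factor of haematopoietic stem cells and endothelium, fell. It had 172, 243 and 283 counts in mESCs and 76.0, 33 and 67 in CPCCs. The levels were 26.6, 35.7 and 41.4 CPM (34.6 ± 7.48, SD, n = 3) against 7.55, 4.0 and 7.68 CPM (6.41 ± 2.09, SD, n = 3). Every CPCC library was below every mESC library, with S05 lowest. The log2 fold change was −2.42 (standard error 0.32, edgeR adjusted p = 0.00021). *Pecam1* and *Gata2* fell between the same libraries in which all 10 pluripotency markers fell, and the part of those cells in the fall was not tested.

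*Erg* (chromosome 16, 95359169 to 95586594, minus strand), an ETS factor that maintains endothelial identity, had 0, 8 and 7 counts in mESCs, or 0.00, 1.18 and 1.02 CPM, and was missing from the CPCC table. The mean was at least 2.19-fold above the CPCC floor, a bound that ranged from at least 1.53-fold to at least 3.28-fold when 1 mESC library at a time was left out. With 1 of 3 libraries at 0, *Erg* was at the limit of detection.

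The 4 genes listed for CPCCs only and *Erg* could be tested only with a value put in for the table that lacked them. Here this was 3 counts in each library, with no filter on low counts, a fit added after the data were seen. In that fit *Cdh5*, *Emcn*, *Esam* and *Tal1* were higher in CPCCs, 4 of the 10 genes against 30.0% of 16279 genes. Being listed for CPCCs only largely set this direction in advance, so these calls add no separate evidence of a rise. *Emcn* had a log2 fold change of 2.87 (standard error 0.64, edgeR adjusted p = 0.00575) and *Cdh5* one of 3.40 (standard error 1.00, edgeR adjusted p = 0.0201). *Esam* was at 2.17 (standard error 0.65, edgeR adjusted p = 0.021) and *Tal1* at 2.29 (standard error 0.81, edgeR adjusted p = 0.0411). Without S04, *Cdh5* dropped to 1.59 (edgeR adjusted p = 0.0114) with a standard error of 0.37, and *Emcn* (2.42, edgeR adjusted p = 0.0116) and *Esam* (1.41, edgeR adjusted p = 0.0163) also still passed. *Tal1* dropped to 1.47 and no longer passed (edgeR adjusted p = 0.116). *Erg* did not pass with S04 (log2 fold change −1.19, edgeR adjusted p = 0.319). The libraries that lacked a gene were all given the same count, so they had no measured spread. These fitted values and their p-values depend on the count put in for missing genes and are no bounds.

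**Figure D2:**
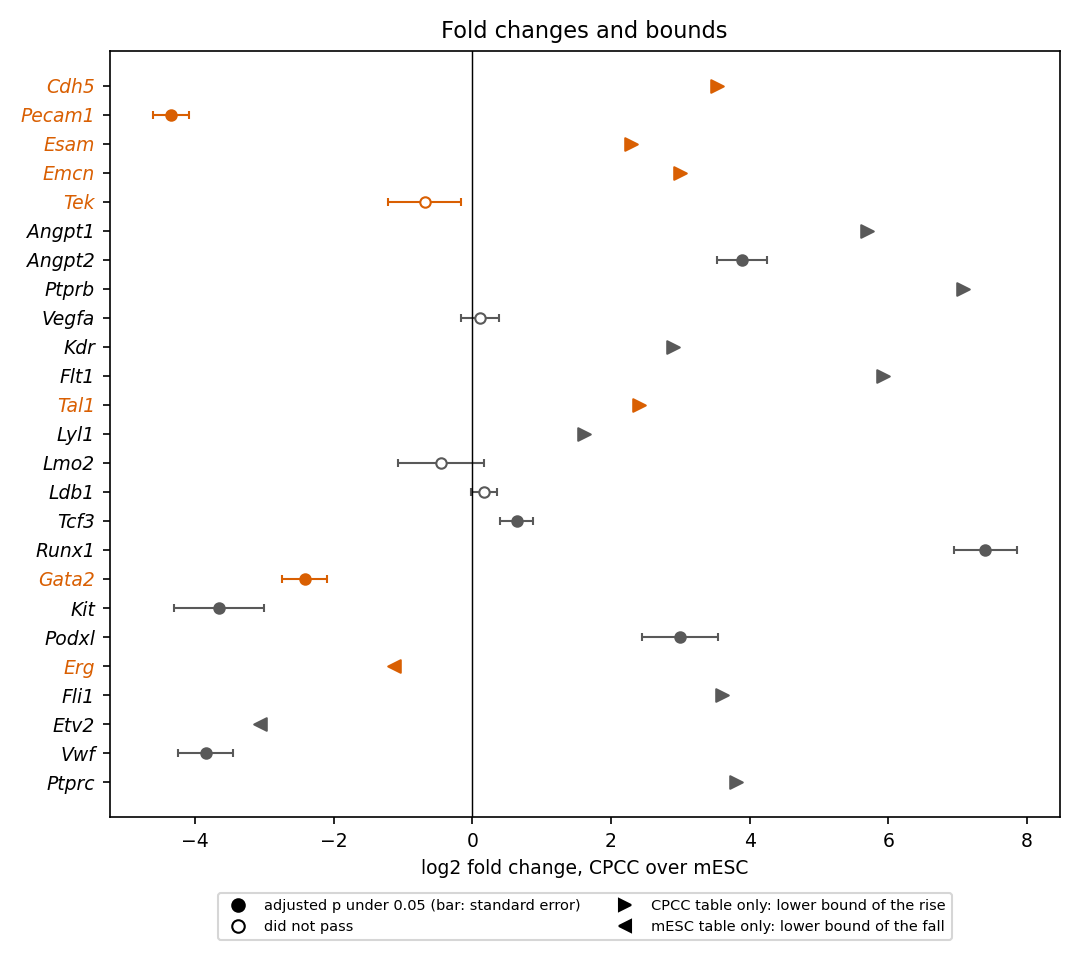
Log2 fold change of CPCC over mESC for 8 of the 10 genes (orange) and for the ligands, receptors, partners and markers named with them (grey). Circles are tested genes with the standard error as a bar, filled where the edgeR adjusted p was under 0.05, and triangles are lower bounds for genes missing from 1 table. *Pecam1*, *Gata2*, *Kit* and *Vwf* lie to the left and *Angpt2*, *Runx1* and *Podxl* to the right.

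The partners of TAL1 and GATA2 rose more often than they fell. Of 12 such genes 9 were tested, with 6 higher and 0 lower (also 0 lower at an unadjusted p under 0.05), against 31.7% and 29.7% of all genes tested. A further 2 were listed for CPCCs only and 1, *Gata1*, the erythroid GATA factor, was in neither table. *Runx1*, needed for blood stem cells to emerge from endothelium and active in mesenchyme as well, went from 1.08, 0.147 and 0.293 CPM to 101.6, 89.5 and 69.1 CPM (log2 fold change 7.40, or 8.52 without S01, standard error 0.45, edgeR adjusted p = 3.45e-06). *Gata3* rose too, with S04 highest at 38.4 CPM against 13.3 and 8.82 (log2 fold change 3.31, or 2.45 without S04, standard error 0.64, edgeR adjusted p = 0.00186). The core of the complex did not follow: the bridging protein *Lmo2* had 2.32, 4.56 and 3.80 CPM in mESCs and 4.57, 2.18 and 1.03 in CPCCs (edgeR adjusted p = 0.554), and *Ldb1* had a log2 fold change of 0.17 (standard error 0.19, edgeR adjusted p = 0.466). *Tcf3*, a dimer partner of TAL1, passed narrowly (log2 fold change 0.64, standard error 0.24, edgeR adjusted p = 0.0435). It did not pass in the fit with missing genes at 3 counts and no filter (edgeR adjusted p = 0.0729) or without S01, S02, S05 or S06 (edgeR adjusted p up to 0.144). *Lyl1*, the closest relative of *Tal1*, had 33, 2 and 5 counts in CPCCs only. It was at least 3.05-fold above the floor with S04 and below the floor without it, at 0.911 times.

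Of 14 other endothelial transcription factors (ETS, SOX, KLF, homeobox and forkhead genes) 6 were tested, with 2 higher and 2 lower. Both numbers were near the shares of all genes tested, 31.7% higher and 29.7% lower. A further 4 were listed for CPCCs only, 1 for mESCs only and 1 for neither, and 2 were removed by the filter on low counts. *Fli1*, the closest relative of *Erg*, was listed for CPCCs only at 7.55, 4.24 and 4.47 CPM, at least 12.1-fold above the floor and at least 9.73-fold without S04. *Etv2*, which initiates endothelial and blood fate, was listed for mESCs only at 1.39, 4.85 and 2.19 CPM, at least 8.39-fold above the CPCC floor and at least 5.35-fold without S02. *Fli1* and *Erg* were therefore listed in opposite tables, but *Erg*, with 15 counts in all, was at the limit of detection. *Elk3*, an ETS factor of endothelium and mesenchyme, rose (log2 fold change 5.21, or 6.06 without S03, standard error 0.50, edgeR adjusted p = 3.5e-05). *Klf2*, the shear-responsive factor of endothelium that is also part of the mouse pluripotency network, fell from 271.2 ± 18.3 to 21.0 ± 3.15 CPM (SD, n = 3 each; log2 fold change −3.69, standard error 0.19, edgeR adjusted p = 1.83e-06).

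A further 30 surface and vessel genes of endothelium were counted in the same way, without the 10 genes above. Of these 15 were tested, with 7 higher and 6 lower, against 31.7% and 29.7% of all genes tested. A further 7 were listed for CPCCs only and 8 for neither cell type. The 8 included *Cldn5*, the main claudin of endothelial tight junctions, and the common endothelial markers *Icam2*, *Nos3*, *Clec14a* and *Dll4*, so several defining endothelial genes stayed under the listing limit in the same CPCC libraries that held *Cdh5* and *Emcn*. The 7 listed for CPCCs only were *Cav1*, *Cd93*, *Acvrl1*, *Stab1*, *Calcrl*, *Aplnr* and *Robo4*. Their mean levels ran from 0.841 times the mESC floor for *Robo4* to 63.3 times for *Cd93* and 822.0 times for *Cav1*. *Thbd*, the anticoagulant receptor thrombomodulin, rose from between 0.463 and 0.883 CPM to 115.0, 49.8 and 36.3 CPM (log2 fold change 6.46, or 5.83 without S04, standard error 0.57, edgeR adjusted p = 2.28e-05). *S1pr1*, a sphingosine 1-phosphate receptor of endothelium, rose to 47.4, 53.4 and 31.9 CPM (log2 fold change 4.74, standard error 0.33, edgeR adjusted p = 6.96e-06). *Podxl*, a sialomucin related to CD34, rose as well, but S04 was its lowest CPCC library, at 28.5 CPM against 125.8 and 164.1 (log2 fold change 2.99, standard error 0.55, edgeR adjusted p = 0.00147).

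Like *Pecam1*, several genes named for endothelium had their higher level in mESCs. *Vwf*, the von Willebrand factor of endothelium and platelets, stood in mESCs at 16.4, 21.0 and 15.6 CPM and in CPCCs at 1.59, 1.33 and 0.688 (log2 fold change −3.85, standard error 0.40, edgeR adjusted p = 5.53e-05). The other 5 that fell, named after their values were seen, were *Mmrn2*, *Rasip1*, *Jam2*, *Egfl7* and *Notch4*, with log2 fold changes from −3.71 for *Mmrn2* to −1.18 for *Notch4*, which no longer passed without S01 or S03 (edgeR adjusted p = 0.0535 and 0.0527). The median log2 fold change over the 15 tested genes was −0.19, and with the bounds of the genes listed for CPCCs only it was 3.19 over 22 genes. The −0.19 was the value of *Plvap*, which did not pass (standard error 0.98, edgeR adjusted p = 0.88). It was 0.18 without S02 and 0.38 without S05. The genes added with bounds were in the list through their CPCC counts, so the 2 medians cannot be set against each other.

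Markers of blood cells were set beside *Tal1*, *Gata2* and *Cd34*. Of 22 haematopoietic markers 5 were tested, with 2 higher and 1 lower, against 31.7% and 29.7% of all genes tested. A further 12 were listed for CPCCs only (15.5% of genes in either table), 1 for mESCs only and 2 for neither. *Ptprc*, the leukocyte antigen CD45, had 157, 23 and 3 counts in CPCCs only, or 15.6, 2.79 and 0.344 CPM, the last being the floor of S06. Its bound was at least 13.9-fold above the mESC floor and at least 3.50-fold without S04. *Ptprc* was thus concentrated in the same library as *Cdh5*, *Esam* and *Tal1*. *Kit*, the stem cell factor receptor of blood progenitors and also of ES cells, fell from 157.6, 156.8 and 125.9 CPM to 1.49, 15.6 and 18.0 CPM, with S04 lowest (log2 fold change −3.66, standard error 0.65, edgeR adjusted p = 0.00116). *Lcp1*, the leukocyte plastin, rose (log2 fold change 1.98, or 1.16 without S04, standard error 0.50, edgeR adjusted p = 0.00783), with 57.5 CPM in S04 against 20.7 and 13.5. The other marker called higher, *Cd68*, passed narrowly (edgeR adjusted p = 0.0485). With 1 library left out it passed only without S06 (edgeR adjusted p = 0.0101). Without S01, S02, S03, S04 or S05 the edgeR adjusted p was 0.0676 to 0.169. Of 14 erythroid markers 11 were in neither table, among them all 7 haemoglobin genes sought (*Hbb-bt*, *Hbb-bs*, *Hbb-bh1*, *Hbb-y*, *Hba-a1*, *Hba-a2* and *Hba-x*). Of the 2 erythroid genes tested 0 were higher (also 0 at an unadjusted p under 0.05) and 1, *Nfe2*, was lower (log2 fold change −2.65, standard error 0.86, edgeR adjusted p = 0.0242), though not with any mESC library left out (edgeR adjusted p from 0.0577 to 0.0683).

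**Figure D3:**
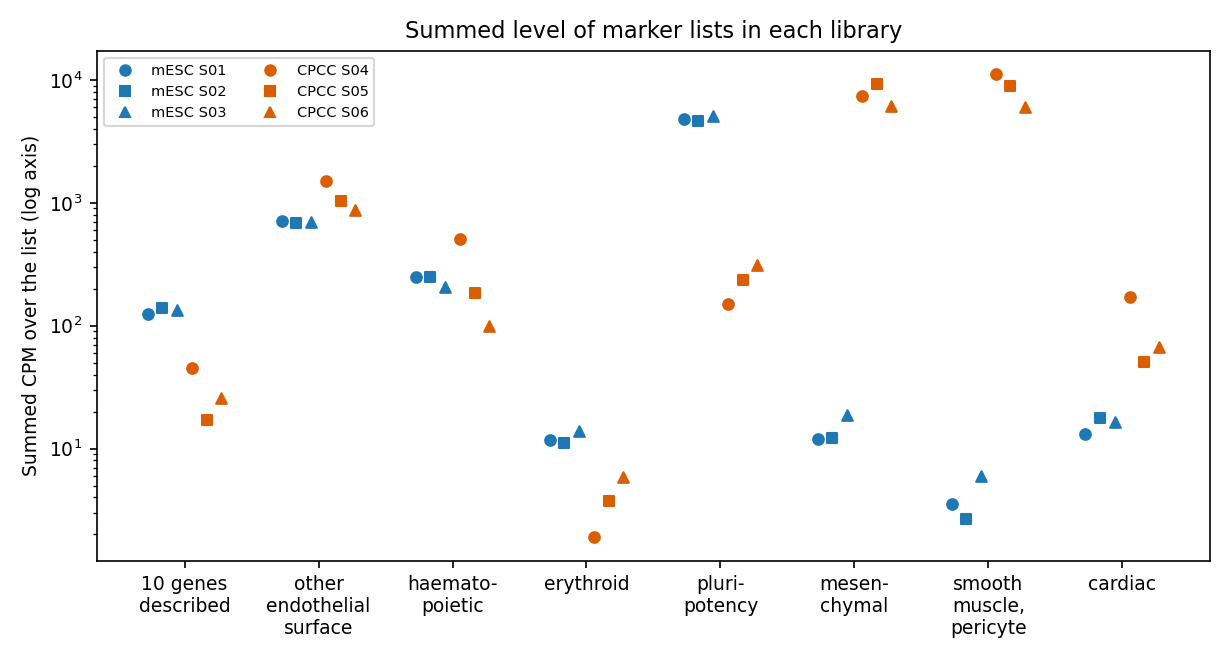
CPM summed over the genes of each marker list (log axis) in the 3 mESC libraries (blue) and the 3 CPCC libraries (orange). The 10 genes sum to between 123.6 and 139.2 CPM in mESCs, mostly *Pecam1* and *Gata2*, and to 44.9, 17.0 and 25.8 CPM in S04, S05 and S06. The haematopoietic sum is above the mESC libraries in S04 only. In mESCs that sum is mostly *Kit* (125.9 to 157.6 CPM) and *Laptm5* (51.3 to 59.9 CPM), while 12 of the 22 markers were listed for CPCCs only.

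The CPCC libraries differed in several of the 10 genes. Of the 8 listed for CPCCs, 5 were highest in S04, against 40.3% of genes of like or higher counts. The ratio of S04 to the mean of S05 and S06 was 8.53 for *Cdh5*, 3.36 for *Tal1*, 3.07 for *Esam*, 2.08 for *Emcn* and 1.89 for *Tek*, and the median over the 13125 genes was 0.983. *Tal1* exceeded 98.4% of those genes, *Esam* 97.9%, *Emcn* 93.7% and *Tek* 91.4%. *Cd34* and *Gata2* were at 1.30 and 1.29, and *Pecam1*, at 0.851, lay below the median. The 4 genes listed for CPCCs only were thus all highest in S04. The summed haematopoietic level had a ratio of 3.60, the cardiac sum one of 2.92 and the smooth muscle and pericyte sum one of 1.51, while the mesenchymal sum was at 0.966 and the pluripotency sum at 0.543. The part of blood or other cells in the S04 levels was not tested. Since S04 is 1 culture, these ratios have no replicate.

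**Figure D4:**
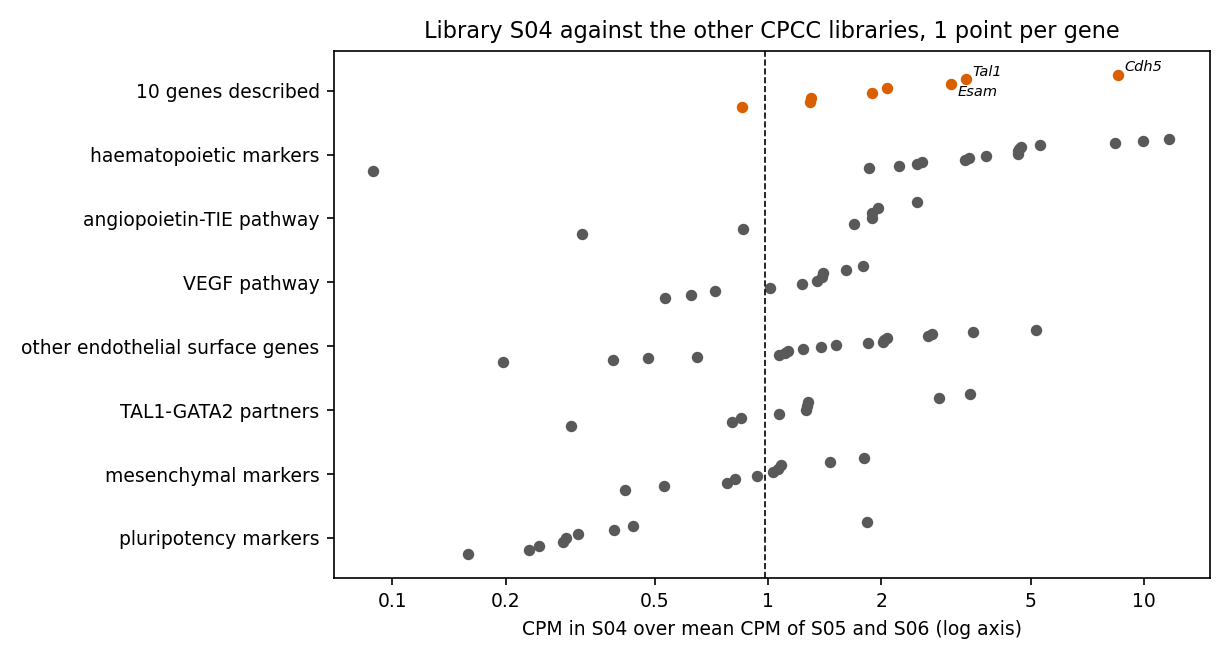
CPM in S04 divided by the mean of S05 and S06 (log axis), with 1 point per gene, for genes with at least as many counts over the CPCC libraries as *Cd34* (46.3). The dashed line is the median of 13125 genes (0.983). *Tal1* and *Esam* lie among values that most haematopoietic markers also reach, *Cdh5* further right, where only *Ptprc* and *Pf4* exceed it among those markers, and all but 1 of the pluripotency markers lie to the left.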

How the data were processed

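PolyA-selected RNA of 3 mESC clones and 3 CPCCs was made into cDNA with the SMART-Seq v4 kit, which does not mark strand, and sequenced by the authors. The authors deposited expected counts for each gene without normalization, both alleles together, with positions on GRCm38 (mm10). STAR 2.7 is named in the submitters' processing notes, and the counter is not given in the sources used here. Between 17.9% and 21.5% of the values in a library are not whole, and all were rounded. Genes under 10 counts over a table's 3 libraries are left out of it.

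The 13001 genes in both tables were filtered with filterByExpr, which removed 530, and tested in edgeR 4.0.16 (R 4.3.3) by glmQLFit and glmQLFTest with TMM, no covariates, and Benjamini-Hochberg adjustment at 0.05. A missing gene was given a bound against 3 counts per library, with no allowance for error in the counts of either cell type. The members and gene lists were chosen with earlier results of these data known. Named whatever their values were all 10 members, *Angpt1*, *Angpt2*, *Ptprb*, *Vegfa*, *Kdr*, *Flt1*, *Etv2*, *Fli1*, *Lmo2*, *Lyl1*, *Ldb1*, *Tcf3*, *Runx1*, *Gata1*, *Podxl*, *Kit*, *Ptprc*, *Cldn5*, *Vwf* and the haemoglobins, and the rule added up to 2 called genes with the largest change from the other lists. Any other gene in the text, such as *Dok2*, *Icam2*, *Nos3*, *Clec14a*, *Dll4*, *Cd68*, *Pf4*, *Tbx5*, *Prox1*, *Lyve1* and *Cav1*, was chosen after its values were seen. Sequences came from RefSeq GRCm38.p6, and coordinates are those of the tables, where 5 of the 9 listed members match the RefSeq gene with an end 1 base past it. Groups were taken from the labels. Alternatives were DESeq2 1.42.0, upper-quartile scaling, library totals, whole-table library sizes, other filters, a 2-fold threshold, missing genes at 0 or 3 counts and leaving out each library. On simulated counts for 13001 genes with 200 changed between CPCC and mESC, edgeR recovered 132 of the 135 with a change of 4-fold or more, with 8 false calls. Allele-specific, single-cell and chromatin data were not analysed here. The mESC libraries come from separate blastocysts, and p-values measure the spread between these 6 libraries.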

Additional observations from a re-analysis of the deposited data

How the results depend on the processing

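The falls of *Pecam1* and *Gata2* passed in all 16 alternatives each, with log2 fold changes from −4.633 to −4.178 (adjusted p up to 0.000109) and from −2.642 to −2.177 (adjusted p up to 0.00188) by edgeR or DESeq2. *Tek* passed in none of 16, at −1.15 to −0.37 (adjusted p 0.0981 to 0.585). The number of the 10 genes higher in CPCCs, 0 as reported, became 1 (*Emcn*) with missing genes at 0 counts or at 3 counts, 4 with missing genes at 3 counts and no filter, and 3 in that fit without S04, where *Tal1* was lost. Over the 108 genes of the endothelial and blood lists, 22 were higher and 11 lower. The number higher became 10 with at least 10 counts in every library, 43 with missing genes at 0 counts, 41 at 3 counts, 47 at 3 counts with no filter and 42 in that fit without S04, where 17 were lower. Putting in values for missing genes adds genes to the test and the count minimum removes some; the cause of the change without S04 was not tested. A 2-fold threshold lowered the number of all genes called lower from 3701 to 2430. The log2 bound of *Cdh5* went from 3.525 to 1.714 without S04, and that of *Erg*, −1.13, ranged from −1.714 to −0.611 with 1 mESC library left out. The fits with no filter and missing genes at 3 counts were chosen after seeing the data. None of the values recomputed for the 10 genes changed direction. Some genes of the other lists did. *Vegfa* went from 0.11 to −0.03 without S01 and −0.02 without S02, and *Plvap* from −0.19 to 0.18 without S02. The bound of *Lyl1* went from 3.05 to 0.911 without S04. No paired analysis was possible because the columns carry no replicate numbers. Depth limits *Cd34*, with 5 to 20 counts per library, and *Erg*, with 0 to 8 in mESCs, while *Tie1* is in neither table.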

Other observations

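Several leukocyte genes of the haematopoietic list, picked here after their values were seen, had bounds well above those of the 10 genes. *Lyz2*, the lysozyme of macrophages and neutrophils, was listed for CPCCs only at 124.9, 33.1 and 14.0 CPM in S04, S05 and S06, at least 128.0-fold above the floor and at least 52.6-fold without S04. *Fcer1g*, a signalling chain of Fc receptors, had 59.6, 18.3 and 7.33 CPM (at least 63.5-fold, and 28.6-fold without S04). *Csf1r*, the receptor for macrophage colony-stimulating factor, had 55.8, 19.2 and 4.93 CPM (at least 59.4-fold, and 26.9-fold without S04). All 3 were highest in S04 and lowest in S06, as were *Emcn* and *Ptprc*, whereas *Tal1* was lowest in S05.

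Among genes of lymphatic endothelium, *Prox1*, the factor that sets lymphatic identity, was listed for CPCCs only at 2.49, 6.91 and 5.72 CPM, with S04 lowest (at least 11.3-fold above the mESC floor), and *Lyve1*, a hyaluronan receptor of lymphatic vessels, was in neither table. *Cav1*, the caveolin of endothelium and mesenchyme, was listed for CPCCs only at 704.3, 234.3 and 165.7 CPM (at least 822.0-fold, and 446.6-fold without S04). These values were not compared with other cell types.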
